A study of Mus musculus with 12 samples.

Results

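The genes described here are the mouse zinc finger protein genes that carry the name Zfp and a number, without Zfp36, measured by RNA-seq in MEFs, fibroblasts grown from mouse embryos. They were chosen by their measured level: a protein-coding row with such a name was a member when its FPKM reached 2 or more in 3 or more of the 12 libraries. FPKM is a fragment count divided by gene length and by library size. Of 364 Zfp-numbered protein-coding rows, 204 met this rule. The other 160 stayed below it, and 13 of these had no value above 0. Because the rule was applied to the levels, they describe the members and are not a result about them.

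The study crossed genotype with heat. CHIP-KO MEFs, which lack the chaperone-bound ubiquitin ligase CHIP (encoded by Stub1), were compared with wild-type MEFs, and cells of each genotype were either held for 1 hour at 43 °C or left without heat. The 4 groups were therefore heated CHIP-KO, unheated CHIP-KO, heated wild type and unheated wild type, with 3 libraries each. The labels do not give the mouse strain, the embryo age, the allele or the number of lines, or whether the 3 libraries of each group are separate cultures. The p-values below therefore reflect the spread among these libraries alone, which may be technical.

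Most proteins of this family bind DNA through tandem C2H2 fingers, short loops in which a zinc ion is held by a pair of cysteines and a pair of histidines. Many also carry a KRAB box, which recruits the co-repressor TRIM28 and with it histone methylation and heterochromatin proteins, and these genes lie in clusters that arose by duplication. KRAB zinc finger proteins are best known for silencing retroelements and for keeping imprints. Members without a KRAB box are more mixed, and some act on RNA, on ribosomes or in signalling.

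Depth was 19953642 to 26954112 fragments for heated and 22894580 to 26244726 for unheated CHIP-KO libraries, and 17103444 to 19294361 for heated and 15591924 to 20098901 for unheated wild-type libraries. Stub1 stood at 0.996 to 1.17 FPKM in heated and 0.722 to 1.17 FPKM in unheated CHIP-KO libraries, against 53.8 to 57.9 FPKM in heated and 57.5 to 64.1 FPKM in unheated wild-type libraries. The fibroblast marker list summed to 3879 to 4112 FPKM (heated) and 3363 to 3550 FPKM (unheated) in CHIP-KO, and to 2621 to 2922 FPKM (heated) and 1639 to 1985 FPKM (unheated) in wild type, and Dcn, Lum and Thy1 of that list were under 0.1 FPKM in both wild-type groups. Lum was also under 0.1 FPKM in unheated CHIP-KO. Epithelial markers summed to at most 1.19 FPKM and endothelial markers to at most 0.753 FPKM in any library, and the muscle factors Myod1 and Myog were listed at 0. The neural list of Sox2, Tubb3 and Nes summed to 31.8 to 38.9 FPKM (heated) and 36.0 to 40.2 FPKM (unheated) in CHIP-KO, and to 13.5 to 14.8 FPKM (heated) and 25.1 to 31.3 FPKM (unheated) in wild type, and the blood list, of which only Cd68 was above 0.1 FPKM, to 8.15 to 10.2 FPKM (heated) and 3.44 to 3.95 FPKM (unheated) in CHIP-KO, and to 12.2 to 15.4 FPKM (heated) and 1.73 to 2.92 FPKM (unheated) in wild type. The part of these marker differences in the results below was not tested, and in such bulk samples fewer cells of a kind and less RNA per cell cannot be told apart. Both wild-type replicates 1 stood apart from the other wild-type libraries, with limma library weights of 0.165 heated and 0.192 unheated.

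Members were low to moderately expressed. Their mean over the 12 libraries ran from 1.14 to 42.0 FPKM with a median of 3.92 FPKM, against a median of 7.48 FPKM over all 13023 rows tested. Only 26 members averaged over 10 FPKM, and 119 averaged under 5 FPKM. Zfp706, Zfp703, Zfp598 and Zfp207 were among the high ones. The median member had 412 fragments in its median library, and the lowest count of any member in any library was 2 fragments. The 3 members just inside the threshold, by their third-highest value, were Zfp11 at 2.01, Zfp983 at 2.02 and Zfp932 at 2.07 FPKM, and the 3 rows just outside it were Zfp954 at 1.99 and Zfp296 and Zfp442 at 1.96 FPKM. A further 4 members reached 2 FPKM in libraries of 1 group only: Zfp467 in heated wild type, Zfp52 in unheated wild type, and Zfp764 and Zfp873 in unheated CHIP-KO. In a wider sense, 8 members reached 2 FPKM in CHIP-KO libraries only (Zfp229, Zfp422, Zfp503, Zfp760, Zfp764, Zfp873, Zfp931 and Zfp983) and 4 in wild-type libraries only (Zfp52, Zfp467, Zfp991 and Zfp993). Likewise 10 reached it in unheated libraries only, among them Zfp763, Zfp867 and Zfp87, and 1, Zfp467, in heated ones only. The rule favours differences in such members, so their values in the comparison concerned are a description, with no test, and counts are also given without them.

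A KRAB box was found in the protein of 102 members and was not found in 101, and Zfp993 had no complete coding sequence in the annotation. KRAB members had a median of 12 fingers (2 to 23) and the others a median of 7 (0 to 37), and 6 without the box, Zfp185, Zfp330, Zfp365, Zfp503, Zfp703 and Zfp839, showed no finger of the searched spacing. KRAB members averaged 3.0 FPKM and members without the box 6.09 FPKM at the median. Of the KRAB members 83 (81.4%) started within 500 kb of another member's start, against 38 (37.6%) of the others. Chromosome 7 held 44 members and chromosome 17 held 33. For 41 members some 100-base stretch of their transcripts also occurs in another gene's transcript, for 16 this holds for over 10% of stretches, and the share was highest for Zfp991 (73.8%) and Zfp993 (71.9%). The split of reads between copies is uncertain there. The library's strand handling is not given in the sources used here, and 20 members overlap a tested gene on the opposite strand, whose reads cannot be told apart from theirs.

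By the median over all members, their level was lowest in unheated wild type and highest in unheated CHIP-KO. On the log2(FPKM + 1) scale, the median deviation of the members from their own 12-library means was 0.0112, -0.0172 and -0.043 in heated CHIP-KO libraries 1, 2 and 3, and 0.0903, 0.0913 and 0.0728 in the unheated ones. In wild type it was -0.0112, -0.024 and 7.9e-05 in the heated libraries, and -0.120, -0.0703 and -0.0593 in the unheated ones. The 3 unheated CHIP-KO libraries were thus higher than any other library and the 3 unheated wild-type libraries lower than any other, while the heated groups of both genotypes overlapped. Members summed to 1182 to 1282 FPKM (heated) and 1265 to 1272 FPKM (unheated) for CHIP-KO libraries, and to 1236 to 1309 FPKM (heated) and 1108 to 1153 FPKM (unheated) for wild-type ones. By this sum unheated wild type was again lowest, while unheated CHIP-KO lay within the range of both heated groups.

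**Figure D1:**
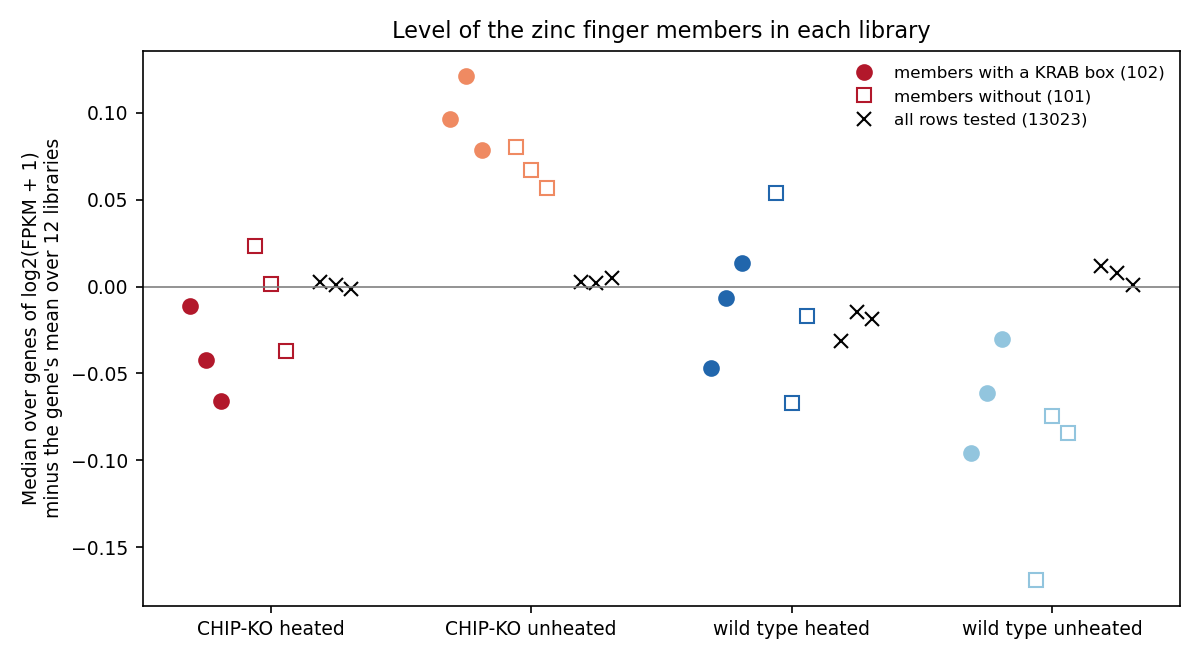
Median deviation of the members from their own mean over 12 libraries, on the log2(FPKM + 1) scale, in each library of the 4 groups; filled circles are KRAB members, open squares members without the box and crosses all 13023 rows tested. Unheated CHIP-KO libraries lie highest for both classes. Unheated wild-type libraries lie lowest for members without the box, while for KRAB members they overlap both heated groups, and the crosses stay near 0.

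Heat lowered more members than it raised in CHIP-KO cells. With limma on log2(FPKM + 1) and a Benjamini-Hochberg adjusted p under 0.05 over all 13023 rows, 49 of 204 members fell and 13 rose in heated against unheated CHIP-KO, beside 11.4% lower and 8.65% higher among all rows (20.0% in either direction). The median log2 change was -0.11 over members and 0.00 over all rows. KRAB members made up most of the falls, with 30 lower and 3 higher (median -0.16), against 19 lower and 10 higher (median -0.05) of the members without the box. Among the 179 members that averaged at least 2 FPKM over all libraries, 41 fell and 13 rose, and without the 11 that reached 2 FPKM at 1 treatment only, 40 fell and 13 rose. With only rows averaging at least 5 FPKM tested, 15 of 85 members fell and 10 rose (median -0.04). All 7920 such rows had 963 lower and 615 higher, so the excess of falls among these members was close to that of all rows. The number of calls fell when any 1 CHIP-KO library was left out. Without unheated CHIP-KO replicate 2 it was 40 members and without unheated CHIP-KO replicate 3 it was 41, against 62 with all libraries. Of all rows 12.5% and 12.2% were called in these 2 fits, against 20.0%. Leaving out 1 heated CHIP-KO library gave 45 to 47 members. With FPKM times length scaled to an equal sum per library, 73 members fell and 8 rose, beside 2671 lower and 798 higher among all 13023 rows, whose median moved to -0.08. With limma's voom on the recovered fragments 80 members fell and 11 rose, beside 3007 lower and 906 higher among all rows (median -0.09).

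In wild-type cells the balance was the other way. Heat raised 69 members and lowered 40, beside 28.1% higher and 30.5% lower among all rows (58.7% in either direction), with a median log2 change of 0.06 over members and -0.02 over all rows. Of KRAB members 31 rose and 22 fell (median 0.08), and of the others 38 rose and 18 fell (median 0.06). Among members averaging at least 2 FPKM, 63 rose and 34 fell, and without those that reached 2 FPKM at 1 treatment only, 68 rose and 34 fell. The excess of rises was not held under quantile normalization, where 56 members rose and 54 fell, beside 3206 higher and 4363 lower among all rows (median -0.07).

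**Figure D2:**
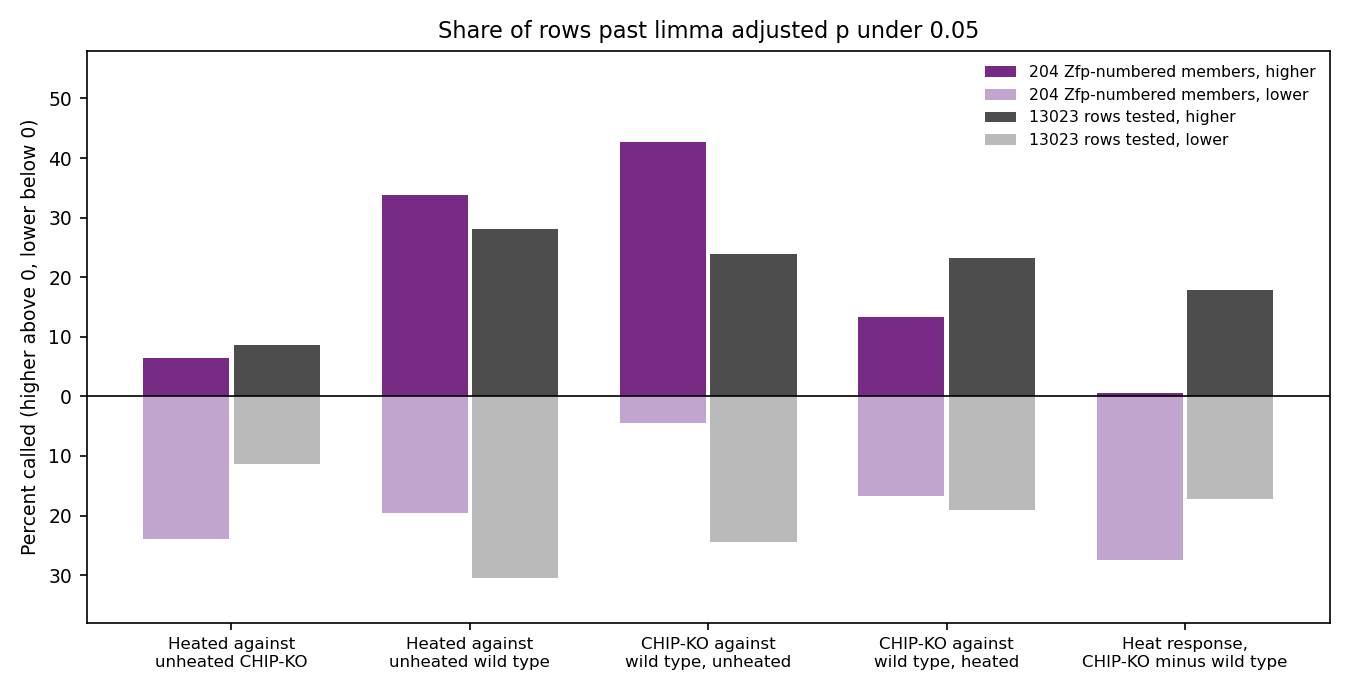
Percent of the 204 members (purple) and of all 13023 rows tested (grey) called higher (above 0) or lower (below 0) at a limma adjusted p under 0.05, for 5 comparisons. In unheated CHIP-KO against wild type 87 members were higher and 9 lower, and for the difference of the heat responses 1 was positive and 56 were negative.

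The heat comparisons of the 2 genotypes share no library. Deviations from group means correlated at 0.335 and 0.231 between heated replicates 1 and 3 of the genotypes, so the comparisons may not be independent. Members lower in both numbered 25, which is 51.0% of the CHIP-KO falls and 62.5% of the wild-type falls. All rows had 876 such genes (6.73% of rows), which is 59.1% of the CHIP-KO falls and 22% of the wild-type falls. Among the 25 lower in both are Zfp52, Zfp748, Zfp763, Zfp867, Zfp87 and Zfp870, which reached 2 FPKM in unheated libraries only. The rule favours falls in these members, so their part in the overlap is a description. Members higher in both numbered 11, which is 84.6% of the CHIP-KO rises and 15.9% of the wild-type rises, beside 5.97% of all rows, for which these shares were 69.0% and 21.2%. Across the 204 members the log2 heat changes of the genotypes had a Pearson correlation of 0.685 and a Spearman correlation of 0.663, against 0.586 and 0.374 over all rows tested, in each case over genes that share libraries and are not independent. Zfp266, a KRAB gene, and Zfp827 were the 2 of 204 members that fell in CHIP-KO and rose in wild type, beside 1.67% of all rows, and they are named here after their values were seen. Zfp266 stood at 6.79, 7.49 and 6.74 FPKM in heated CHIP-KO, against 8.72, 8.86 and 8.40 unheated, and at 8.61, 7.67 and 7.63 FPKM in heated wild type, against 5.86, 6.98 and 6.27 unheated. Zfp827 had log2 changes of -0.30 in CHIP-KO and 0.25 in wild type. The CHIP-KO fall of Zfp266 was lost without heated replicate 1 or 3 or unheated replicate 1 or 2 (limma adjusted p of 0.0588 to 0.0691). That of Zfp827 was lost without any 1 CHIP-KO library other than unheated replicate 3 (0.0563 to 0.113), and its wild-type rise without heated replicate 1 or 3 or unheated replicate 1 (0.0742 to 0.0908).

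Zfp763 (ENSMUSG00000067430, GRCm38 chromosome 17, 33016863 to 33033402, minus strand), a KRAB gene with 13 fingers, had the largest fall in both genotypes among the members. It stood at 0.627, 1.05 and 1.13 FPKM in heated CHIP-KO libraries, against 2.82, 2.35 and 2.22 in unheated ones, and at 0.932, 1.08 and 1.20 FPKM in heated wild type, against 2.85, 2.66 and 2.62 in unheated wild type. Every heated library lay below every unheated one. The log2 change was -0.84 ± 0.11 (SE, n = 3 each) in both, a description for this gene, which reached 2 FPKM in unheated libraries only. Zfp526, with 13 fingers and no KRAB box, stood at 2.61, 2.74 and 3.23 FPKM in heated CHIP-KO, against 5.22, 5.85 and 5.23 in unheated CHIP-KO, and at 2.51, 2.50 and 2.49 FPKM in heated wild type, against 3.70, 4.63 and 4.65 in unheated wild type. Its groups did not overlap in either genotype, and its log2 changes were -0.74 in CHIP-KO and -0.60 in wild type (limma adjusted p = 2.82e-04 and 1.33e-04). Zfp871, a KRAB gene with 15 fingers on chromosome 17, stood at 6.16, 6.17 and 7.0 FPKM in heated CHIP-KO, against 10.9, 11.7 and 12 in unheated CHIP-KO, and fell in wild type as well, with 7.47, 4.79 and 5.44 FPKM heated against 8.10, 9.27 and 9.21 unheated. Zfp867 (-0.73 in CHIP-KO and -0.54 in wild type), Zfp933 (-0.73 and -0.49) and Zfp87 (-0.83 and -0.35), all KRAB genes, completed the 6 largest falls in CHIP-KO. Of these, Zfp867 and Zfp87 also reached 2 FPKM in unheated libraries only.

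The 9 members between 32771236 and 33631779 on chromosome 17, 8 of them with a KRAB box, hold Zfp871, Zfp472 and Zfp763. Of these 9, 5 fell with heat in CHIP-KO (median log2 change -0.35) and 5 fell in wild type (median -0.28). The same 5 members fell in both genotypes, namely Zfp101, Zfp472, Zfp763, Zfp870 and Zfp871. Of these, Zfp763 and Zfp870 reached 2 FPKM in unheated libraries only, so their falls are a description. Zfp472 stood at 2.01, 2.43 and 2.22 FPKM in heated CHIP-KO, against 3.77, 3.99 and 3.59 in unheated CHIP-KO, and at 1.55, 1.40 and 1.15 FPKM in heated wild type, against 2.88, 1.96 and 3.13 in unheated wild type. The larger cluster on the same chromosome, 17 KRAB members between 21008903 and 22867134, had other values: 3 fell and 1 rose in CHIP-KO (median -0.10), and 2 fell and 9 rose in wild type (median 0.23). Of all rows 11.4% fell and 8.65% rose in CHIP-KO, and 30.5% fell and 28.1% rose in wild type.

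Of the members that rose in both genotypes, Zfp655, a KRAB gene with 7 fingers on chromosome 5, and Zfp367, a transcription factor with 2 fingers and no KRAB box on chromosome 13, were the largest in CHIP-KO. Zfp655 stood at 15.8, 11.6 and 10.5 FPKM in heated CHIP-KO, against 8.0, 7.55 and 8.18 in unheated CHIP-KO, and at 13.3, 10.9 and 10.5 FPKM in heated wild type, against 5.38, 5.6 and 5.15 in unheated wild type. Its groups did not overlap, and its log2 changes were 0.60 ± 0.12 and 0.97 ± 0.12 (SE, n = 3 each; limma adjusted p = 0.00692 and 5.63e-05). Zfp367 stood at 24.0, 15.1 and 14.8 FPKM in heated CHIP-KO, against 8.67, 8.53 and 9.34 in unheated CHIP-KO, and at 19.2, 14.1 and 13.4 FPKM in heated wild type, against 11.4, 9.30 and 9.34 in unheated wild type. Replicate 1 was the highest heated library in both genotypes. Its log2 changes were 0.92 ± 0.17 in CHIP-KO (limma adjusted p = 0.00428) and 0.58 ± 0.17 in wild type (limma adjusted p = 0.0139), and the wild-type rise stood at limma adjusted p = 0.0562 without heated wild-type replicate 1. Zfp654 rose to 6.60, 5.97 and 6.06 FPKM in heated CHIP-KO, against 3.99, 3.95 and 4.4 unheated, and to 7.85, 5.91 and 6.59 FPKM in heated wild type, against 4.11, 4.68 and 4.29 unheated. Zfp513, known from mouse and human retina, rose by 0.40 in CHIP-KO and by 0.75 in wild type on the log2 scale.

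The 250 bases before the RefSeq gene start (GRCm38.p6) are printed for Zfp763 and Zfp526, which fell in both genotypes, and for Zfp655 and Zfp367, which rose in both, so that the windows searched for motifs can be read. Capitals mark a 2-unit heat shock element, the inverted repeat that heat shock factors bind, written GAANNTTC or TTCNNGAA, where both words are their own reverse complement and so cover both strands. The windows are chr17:33033382-33033631 (minus strand), chr7:25221175-25221424 (plus), chr5:145231492-145231741 (plus) and chr13:64153200-64153449 (minus).
Zfp763: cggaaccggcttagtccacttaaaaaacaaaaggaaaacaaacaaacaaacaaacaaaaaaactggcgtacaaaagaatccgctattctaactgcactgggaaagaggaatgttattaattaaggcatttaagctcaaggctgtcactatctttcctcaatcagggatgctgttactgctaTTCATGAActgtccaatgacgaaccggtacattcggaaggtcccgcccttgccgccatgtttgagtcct
Zfp526: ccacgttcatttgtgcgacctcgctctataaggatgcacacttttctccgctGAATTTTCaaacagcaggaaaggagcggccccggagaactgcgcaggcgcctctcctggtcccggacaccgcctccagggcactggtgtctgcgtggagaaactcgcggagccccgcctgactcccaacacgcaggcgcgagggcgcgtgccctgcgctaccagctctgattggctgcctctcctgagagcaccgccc
Zfp655: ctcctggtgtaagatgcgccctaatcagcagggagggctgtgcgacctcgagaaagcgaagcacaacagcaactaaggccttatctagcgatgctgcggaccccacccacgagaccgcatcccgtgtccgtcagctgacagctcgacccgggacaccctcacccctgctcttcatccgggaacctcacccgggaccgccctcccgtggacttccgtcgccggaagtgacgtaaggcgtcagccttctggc
Zfp367: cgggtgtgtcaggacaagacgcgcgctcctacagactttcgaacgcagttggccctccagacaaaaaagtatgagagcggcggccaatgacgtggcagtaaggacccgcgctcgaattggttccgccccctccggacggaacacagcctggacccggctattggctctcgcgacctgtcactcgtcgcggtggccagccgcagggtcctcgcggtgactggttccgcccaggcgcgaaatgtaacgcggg

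For 168 members the RefSeq table held a promoter by symbol, and 156 of these started within 1 kb of the deposited gene's 5′ end. The 2-unit word occurred in 20 of 156 member windows (12.8%) and in 4218 of 32851 windows of all genes (12.8%). It was present in 9 of the 39 windows of members that fell with heat in CHIP-KO (23.1%), in 7 of the 30 windows of those that fell in wild type (23.3%), and in 1 of the 51 windows of those that rose in wild type (1.96%). The 3-unit element, which extends the 2-unit word by another GAA or TTC at the same spacing, occurred in 0 of the 156 member windows and in 0.466% of all windows. These are matches of letters and no test was made of their shares.

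**Figure D3:**
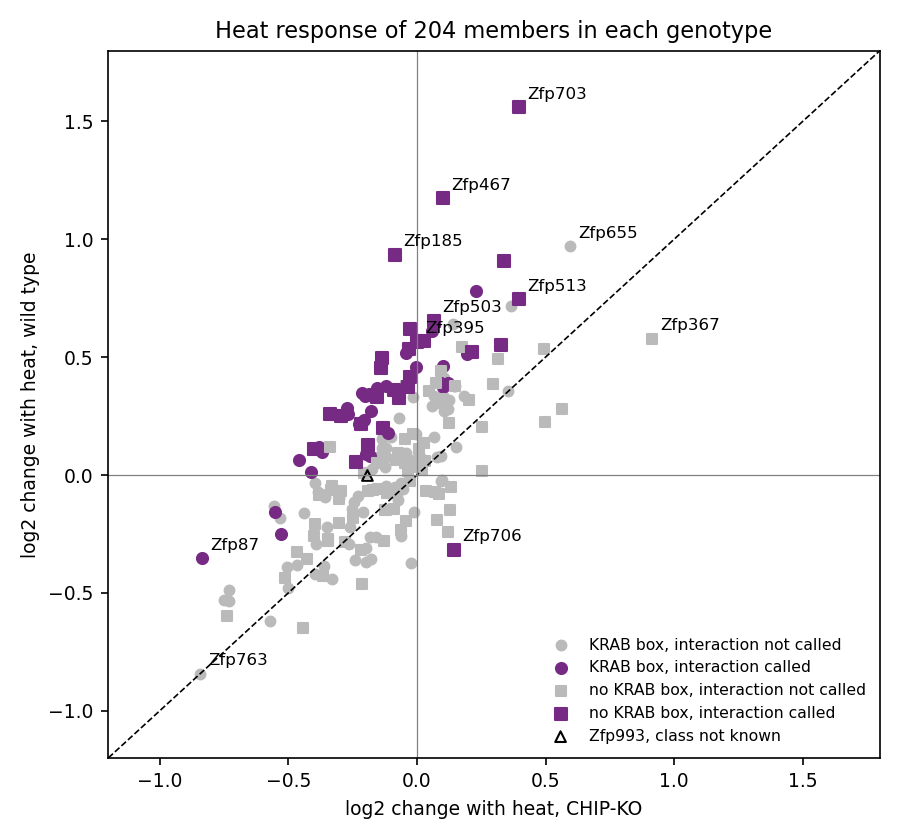
Log2 change with heat of the 204 members in CHIP-KO (horizontal) and wild type (vertical), on the log2(FPKM + 1) scale; the dashed line marks equal change, and purple marks members whose responses differed between genotypes at a limma adjusted p under 0.05. Of 57 such members, 56 lie above the line and Zfp706 below it.

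The heat response itself differed between genotypes mostly in 1 direction. The interaction, which is the log2 heat change in CHIP-KO minus that in wild type, was negative past the threshold for 56 members and positive for 1, beside 17.3% negative and 17.9% positive among all rows (35.2% in either direction). The median interaction was -0.20 over members and 0.00 over all rows. It was -0.23 in KRAB members (29 negative and 0 positive by limma, or 37 and 1 at unadjusted p under 0.05) and -0.14 in members without the box (27 negative, 1 positive). Without the 4 members that passed through 1 group, 54 were negative and 1 positive. Under quantile normalization 37 were negative and 5 positive, beside 2076 and 2347 among all rows. Without both wild-type replicates 1 the counts were 50 and 5, beside 2492 and 2631 among all rows.

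Zfp703 (ENSMUSG00000085795, GRCm38 chromosome 8, 26977325 to 26981461, plus strand), a transcriptional co-repressor of the NET family, had the most negative interaction. It stood at 43.8, 30.4 and 29.3 FPKM in heated CHIP-KO, against 24.9, 24.1 and 27.7 in unheated CHIP-KO, and at 76.7, 61.3 and 60.0 FPKM in heated wild type, against 18.9, 23.7 and 22.5 in unheated wild type. All heated wild-type libraries lay above all heated CHIP-KO libraries. The log2 heat change was 0.40 ± 0.15 in CHIP-KO (limma adjusted p = 0.0852) and 1.56 ± 0.15 in wild type (limma adjusted p = 6.95e-06), and the interaction was -1.16 ± 0.21 (limma adjusted p = 0.0015). Zfp185, which encodes an actin-associated LIM domain protein, stood at 2.17, 1.54 and 1.91 FPKM in heated CHIP-KO, against 2.06, 2.03 and 2.01 in unheated CHIP-KO, and at 3.63, 4.53 and 4.93 FPKM in heated wild type, against 1.35, 2.01 and 2.07 in unheated wild type. Heated wild type was the one group of Zfp185 that stood apart from the others, and the interaction was -1.02 ± 0.18 (limma adjusted p = 0.00111). Zfp395 stood at 13.2, 14.2 and 13.8 FPKM in heated CHIP-KO, against 13.6, 13.0 and 14.7 in unheated CHIP-KO, and at 19.4, 20.3 and 21.0 FPKM in heated wild type, against 13.3, 13.0 and 13.8 in unheated wild type. Its interaction was -0.56 ± 0.08 (limma adjusted p = 2.69e-04), and only the heated wild-type libraries stood apart.

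Zfp467, known in mouse as a factor that favours fat over bone cell formation, became a member through heated wild type alone, so its values are a description. It stood at 1.77, 1.85 and 1.76 FPKM in heated CHIP-KO and at 1.75, 1.45 and 1.62 FPKM in unheated CHIP-KO, and at 5.41, 4.10 and 4.01 FPKM in heated wild type and 1.52, 1.45 and 1.31 FPKM in unheated wild type. Zfp821, with 3 fingers and no KRAB box, rose in both genotypes, to 4.72, 4.70 and 4.68 FPKM in heated CHIP-KO, against 3.31, 3.71 and 3.54 unheated, and to 5.84, 5.91 and 5.41 FPKM in heated wild type, against 2.72, 2.44 and 2.59 unheated. Its interaction was -0.57 ± 0.08 (limma adjusted p = 2.89e-04), with the larger rise in wild type. Zfp87 fell in both, to 1.78, 1.42 and 1.37 FPKM in heated CHIP-KO, against 3.82, 3.05 and 3.63 unheated, and to 1.99, 1.71 and 1.83 FPKM in heated wild type, against 2.99, 2.57 and 2.35 unheated, and its interaction was -0.48 (limma adjusted p = 0.0183). Under quantile normalization the adjusted p of that interaction was 0.0845.

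Zfp706, which encodes a small protein known in mouse embryonic stem cells as a brake on self-renewal, was the 1 member with a positive interaction. It stood at 46.2, 42.1 and 40.6 FPKM in heated CHIP-KO, against 38, 37.6 and 40.6 in unheated CHIP-KO, and at 40.8, 37.2 and 36.7 FPKM in heated wild type, against 55.2, 45.4 and 43.6 in unheated wild type. It fell with heat in wild type (log2 change -0.32, limma adjusted p = 0.00844) and the interaction was 0.46 ± 0.12 (limma adjusted p = 0.0129). Unheated wild-type replicate 1 was its highest library.

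**Figure D4:**
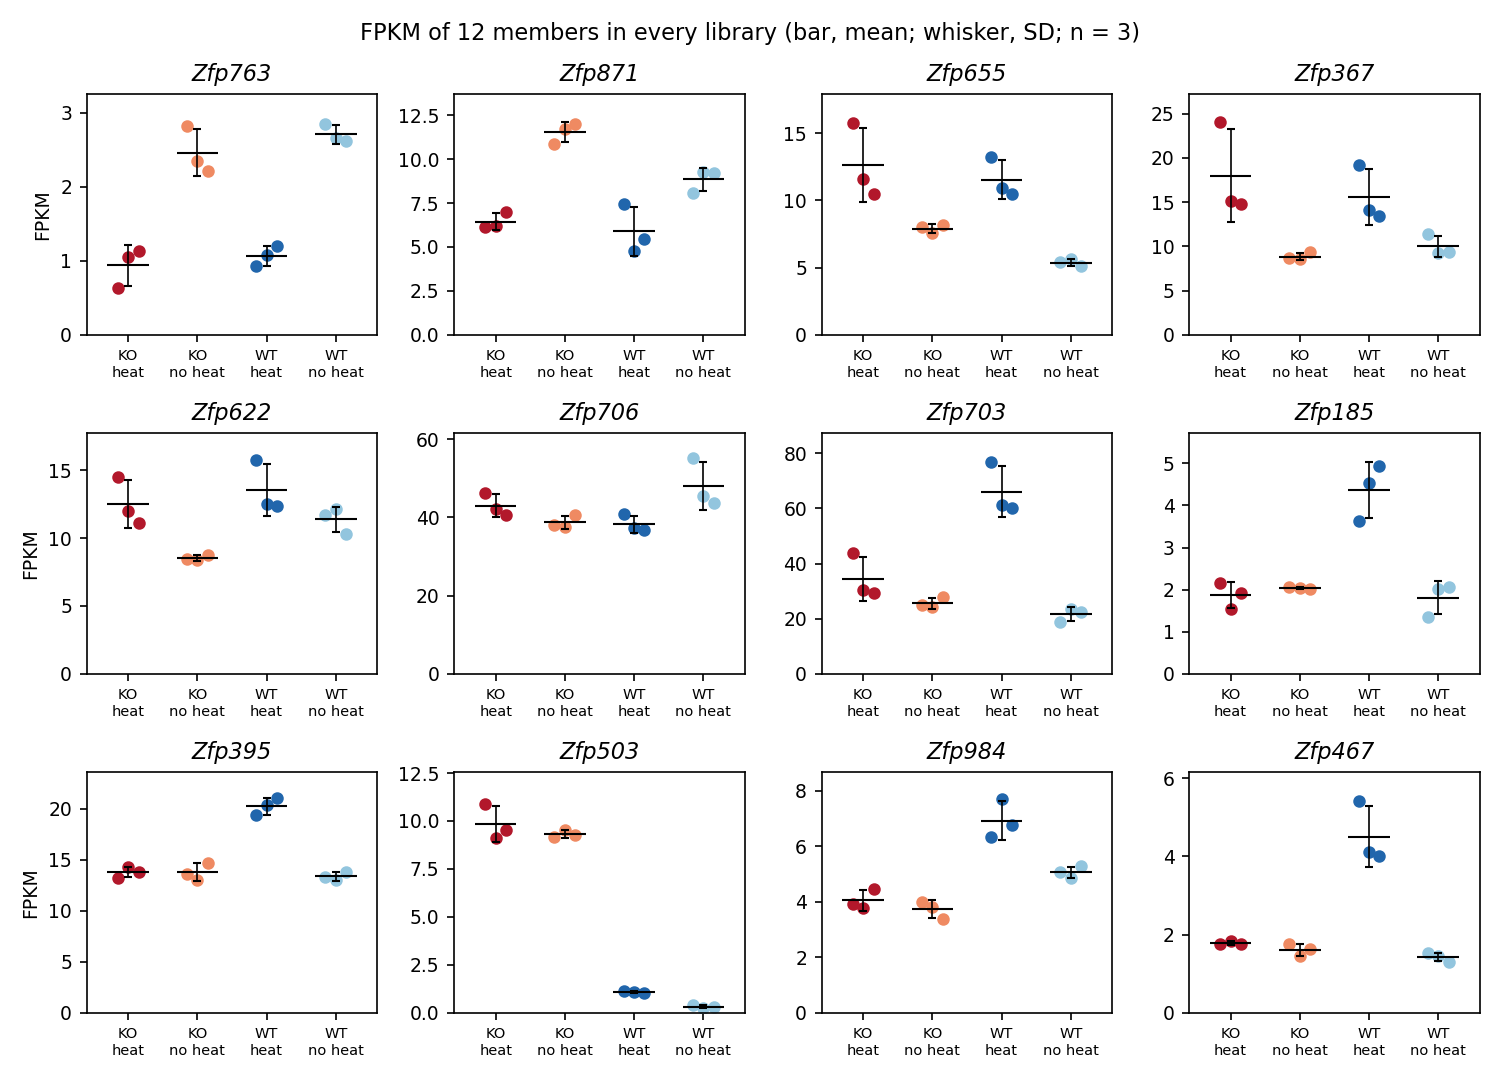
FPKM of 12 members in every library, with each group's mean (bar) and SD (whisker), n = 3; the axes differ between genes and start at 0. Zfp763 and Zfp871 are lower and Zfp655 and Zfp367 higher in heated cells of both genotypes, Zfp703, Zfp185, Zfp395 and Zfp467 are highest in heated wild type, and Zfp503 is at 9.12 to 10.9 FPKM in CHIP-KO and at most 1.13 FPKM in wild type.

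Without heat, members were more often higher than lower in CHIP-KO. Of 204 members, 87 were higher and 9 lower in unheated CHIP-KO against unheated wild type, beside 23.9% higher and 24.5% lower among all rows (48.5% in either direction), with a median log2 difference of 0.17 over members and -0.01 over all rows. KRAB members had 46 higher and 3 lower (median 0.20), and the others 41 higher and 5 lower (median 0.14). Among members averaging at least 2 FPKM, 78 were higher and 6 lower, and without the 12 that reached 2 FPKM in 1 genotype only, 79 were higher and 6 lower. Under quantile normalization 53 members were higher and 12 lower, with a median of 0.11, beside 2802 higher and 3444 lower among all rows (median -0.06). After heat the counts were 27 higher and 34 lower in heated CHIP-KO against heated wild type, beside 23.3% and 19.1% of all rows (42.4% in either direction), with a median of 0.00, and without those 12 members 20 were higher and 30 lower. With FPKM times length at an equal sum per library the heated comparison had 21 members higher and 45 lower, beside 2393 and 3067 of all rows. With voom it had 20 higher and 47 lower, beside 2433 and 3166 of all rows. The interaction given above is the test of the difference between these treatments, and it uses all 12 libraries. The unheated wild-type libraries enter both the wild-type heat comparison and the unheated genotype comparison. In the same way the unheated CHIP-KO libraries enter both the CHIP-KO heat comparison and the unheated genotype comparison. The counts of these comparisons are therefore not independent.

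The 2 genotype comparisons share no library. Members higher in CHIP-KO at both treatments numbered 23, which is 26.4% of those higher without heat and 85.2% of those higher after heat, beside 11.4% of all rows, for which these shares were 47.8% and 49.1%. Of the 8 members that reached 2 FPKM in CHIP-KO only, all but Zfp873 are among these 23. Members lower at both were Zfp52, Zfp213, Zfp984, Zfp991 and Zfp993, 55.6% of those lower without heat and 14.7% of those lower after heat, beside 8.15% of all rows, for which these shares were 33.2% and 42.6%. Of these, Zfp52, Zfp991 and Zfp993 reached 2 FPKM in wild type only. A group of 7 members, Zfp157, Zfp358, Zfp408, Zfp444, Zfp513, Zfp637 and Zfp821, named for this pattern after their values were seen, was higher in CHIP-KO without heat and lower after it, beside 2.94% of all rows. For Zfp821 the 2 differences were 0.33 and -0.24 on the log2 scale (limma adjusted p = 5.57e-04 and 0.00599). Zfp821 kept both calls in all 12 fits that each left out 1 library, and for each of the other 6 both calls were lost in at least 1 such fit. The unheated calls were lost without unheated CHIP-KO replicate 1 for Zfp157, Zfp408, Zfp444 and Zfp513, replicate 2 for Zfp408 and Zfp513, and replicate 3 for Zfp157, Zfp444, Zfp513 and Zfp637. They were also lost without unheated wild-type replicate 1 for Zfp157, Zfp513 and Zfp637, replicate 2 for Zfp157 and Zfp444, and replicate 3 for Zfp358, Zfp444, Zfp513 and Zfp637, and for Zfp513 without any 1 heated CHIP-KO library (limma adjusted p of 0.0524 to 0.122 over all these fits). The heated calls of these 6 were lost without 1 or more of the heated CHIP-KO or heated wild-type libraries, and for Zfp637 also without unheated CHIP-KO replicate 1 (limma adjusted p of 0.0504 to 0.128).

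Zfp503 (ENSMUSG00000039081, GRCm38 chromosome 14, 21983959 to 21989601, minus strand), the second NET family co-repressor, known from striatum and limb development, had the largest genotype difference. It stood at 10.9, 9.12 and 9.55 FPKM in heated CHIP-KO, against 1.13, 1.08 and 1.01 in heated wild type, and at 9.16, 9.55 and 9.29 FPKM in unheated CHIP-KO, against 0.421, 0.255 and 0.279 in unheated wild type. The groups were far apart at both treatments, with log2 differences of 2.39 ± 0.07 after heat and 2.97 ± 0.07 without it, which are a description because the gene reached 2 FPKM in CHIP-KO libraries only. Heat raised it in wild type (log2 change 0.65, limma adjusted p = 2.36e-05), and in CHIP-KO the change was 0.07 (limma adjusted p = 0.568). Its interaction was -0.59 (limma adjusted p = 0.00132), and the limma adjusted p was 0.281 under quantile normalization. Its relative Zfp703 was not past the threshold without heat (log2 difference 0.23, limma adjusted p = 0.229) and was lower in CHIP-KO after heat (-0.93, limma adjusted p = 4.52e-04).

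Several other members were higher in CHIP-KO at both treatments. Zfp651, with 7 fingers and no KRAB box, stood at 4.41, 4.34 and 5.04 FPKM in heated CHIP-KO, against 3.0, 3.15 and 3.38 in heated wild type, and at 4.51, 4.71 and 4.92 FPKM in unheated CHIP-KO, against 1.85, 1.95 and 1.86 in unheated wild type. Zfp422 stood at 2.10, 1.98 and 2.25 FPKM in heated CHIP-KO, against 0.958, 0.963 and 1.19 in heated wild type, and at 3.27, 2.86 and 2.63 FPKM in unheated CHIP-KO, against 1.03, 1.18 and 1.09 in unheated wild type. Both were apart from wild type in every library, with log2 differences without heat of 0.99 for Zfp651 and 0.90 for Zfp422, the second a member through CHIP-KO libraries only. Zfp764, a KRAB gene on chromosome 7 that became a member through unheated CHIP-KO alone, stood at 1.30, 1.27 and 1.71 FPKM in heated CHIP-KO and 0.165, 0.209 and 0.305 FPKM in heated wild type, and at 2.15, 2.67 and 2.85 FPKM in unheated CHIP-KO and 0.278, 0.591 and 0.188 FPKM in unheated wild type.

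Counts were also taken by chromosome, with no test between chromosomes and no count of all rows by chromosome. Of all members 42.6% were higher and 4.41% lower in unheated CHIP-KO, beside 23.9% and 24.5% of all rows. On chromosomes 5, 6 and 17, 6 of 13, 7 of 13 and 12 of 33 members were higher by limma. Lower ones there numbered 1, 0 (0 unadjusted) and 2. On chromosome 7, 26 of 44 members were higher in unheated CHIP-KO and 0 lower by limma, or 27 and 1 at unadjusted p under 0.05, and the median difference was 0.25. On chromosome 8, 9 of 15 were higher (10 unadjusted) and 0 lower (0 unadjusted) by limma, with a median of 0.28. On chromosome 4, by limma, 0 of 10 were higher (1 unadjusted) and 3 lower (3 unadjusted). The 3 lower ones on chromosome 4, Zfp993, Zfp991 and Zfp984, are consecutive members between 146610961 and 147809788. Zfp991 stood at 0.134, 0.196 and 0.371 FPKM in heated CHIP-KO, against 3.04, 2.91 and 3.06 in heated wild type, and at 0.219, 0.191 and 0.0591 FPKM in unheated CHIP-KO, against 2.37, 2.93 and 3.08 in unheated wild type. Zfp993 stood at 0.123, 0.571 and 0.0772 FPKM in heated CHIP-KO, against 2.52, 3.15 and 2.79 in heated wild type, and at 0.533, 0.349 and 0.372 FPKM in unheated CHIP-KO, against 3.04, 3.05 and 2.40 in unheated wild type. Both were apart from wild type in every library, and both are members through wild-type libraries only. Since most of their 100-base stretches occur in other transcripts, their own level is uncertain. Zfp984, for which 31.2% of stretches are shared, stood at 3.93, 3.77 and 4.48 FPKM in heated CHIP-KO, against 6.33, 7.69 and 6.76 in heated wild type, and at 4.0, 3.83 and 3.39 FPKM in unheated CHIP-KO, against 5.06, 4.86 and 5.27 in unheated wild type. Its neighbour Zfp933, from 147822986 on, did not pass the threshold between genotypes at either treatment.

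**Figure D5:**
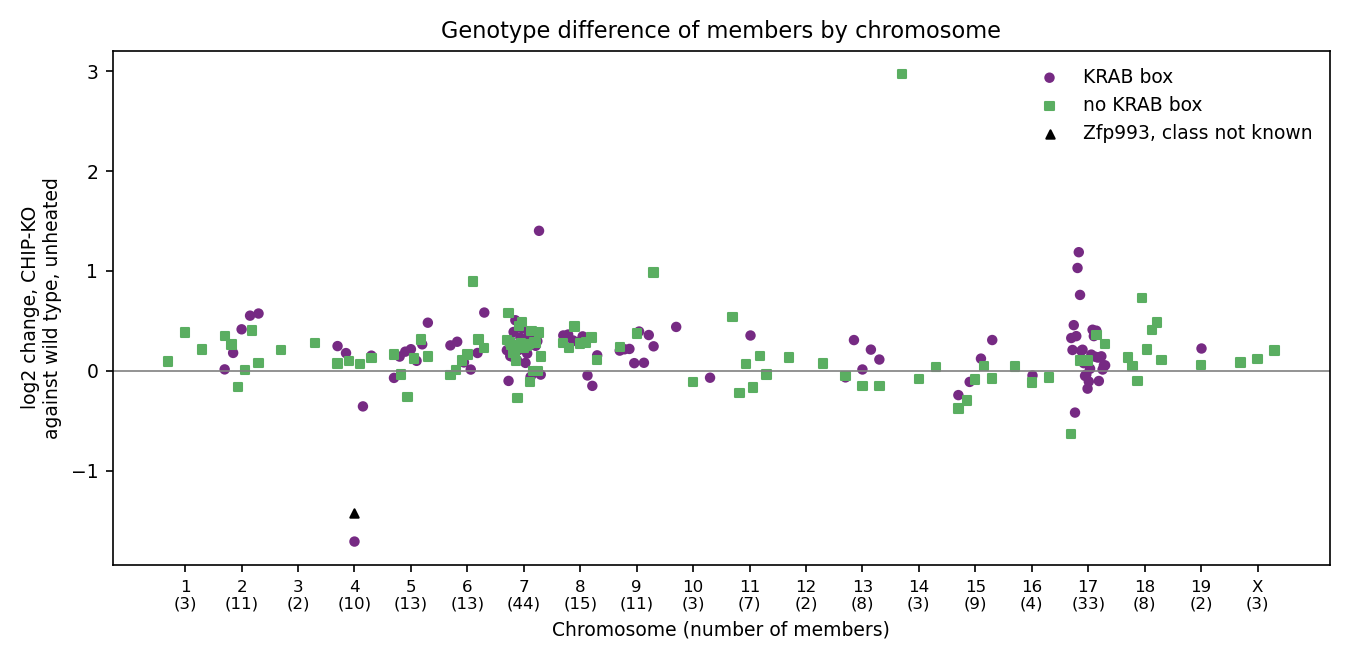
Log2 difference of unheated CHIP-KO against unheated wild type for each member, on the log2(FPKM + 1) scale, by chromosome and in order of position within each class (not to scale). Most members lie above 0, with Zfp503 on chromosome 14 highest and Zfp991 on chromosome 4 lowest.

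The cluster of 17 KRAB members on chromosome 17 (21008903 to 22867134), on the same chromosome as Stub1 (25830636 to 25833361), held genotype differences in both directions. Without heat 7 of the 17 were higher in CHIP-KO and 1 lower, beside 23.9% and 24.5% of all rows. After heat 4 were higher and 7 lower, beside 23.3% and 19.1% of all rows. Zfp760 stood at 2.84, 3.52 and 2.88 FPKM in heated CHIP-KO, against 1.42, 1.70 and 1.47 in heated wild type, and at 4.56, 4.32 and 4.03 FPKM in unheated CHIP-KO, against 1.15, 1.51 and 1.34 in unheated wild type. Zfp983 stood at 2.16, 2.15 and 2.01 FPKM in heated CHIP-KO, against 0.345, 0.428 and 0.427 in heated wild type, and at 2.02, 1.91 and 1.79 FPKM in unheated CHIP-KO, against 0.394, 0.446 and 0.433 in unheated wild type. Neither overlapped between genotypes, with log2 differences without heat of 1.19 for Zfp760 and 1.03 for Zfp983. Both reached 2 FPKM in CHIP-KO libraries only, so these differences are a description. Zfp229, next to Zfp760 and likewise a member through CHIP-KO libraries only, had log2 differences of 0.66 after heat and 0.76 without it. Zfp52, which became a member through unheated wild type alone, was the lower one, at 1.36, 1.12 and 1.21 FPKM in heated CHIP-KO and 1.92, 1.93 and 1.45 FPKM in heated wild type, and at 1.77, 1.73 and 1.91 FPKM in unheated CHIP-KO and 2.35, 2.94 and 2.99 FPKM in unheated wild type.

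By role, members acting on RNA and ribosomes were called in both directions. Of 11 such members (12 were listed), 3 rose and 1 fell with heat in CHIP-KO, and 1 rose and 4 fell in wild type, which is 36.4% and 45.5% called, beside 20.0% and 58.7% of all rows. In the 12 fits that each left out 1 library, Zfp622 in CHIP-KO and the wild-type falls of Zfp106 and Zfp706 were the calls kept in every fit, and others were lost at limma adjusted p of 0.0514 to 0.115. The CHIP-KO rise of Zfp330 was lost without heated replicate 1 or 2 or unheated replicate 2 or 3, and its wild-type rise without heated replicate 2 or unheated replicate 2 or 3. The wild-type fall of Zfp326 was lost without heated replicate 2 or unheated replicate 1 or 3, and that of Zfp638 without heated replicate 1 or 2 or unheated replicate 1 or 2. Zfp622, a ribosome assembly factor, stood at 14.5, 12 and 11.1 FPKM in heated CHIP-KO, against 8.44, 8.35 and 8.75 in unheated CHIP-KO, and at 15.8, 12.5 and 12.4 FPKM in heated wild type, against 11.7, 12.1 and 10.3 in unheated wild type. Heated and unheated CHIP-KO libraries did not overlap (log2 change 0.50, limma adjusted p = 0.00785), and the wild-type change was 0.23 (limma adjusted p = 0.0885). Zfp598, a ubiquitin ligase that senses collided ribosomes, rose in CHIP-KO, to 36.1, 38.1 and 38.6 FPKM, against 32.0, 30.9 and 31.4 unheated (log2 change 0.25, limma adjusted p = 0.0195), and that call was lost without heated CHIP-KO replicate 2 or 3 or unheated CHIP-KO replicate 2 or 3 (limma adjusted p of 0.0624 to 0.0698) and with voom (0.102). Zfp106, an RNA-binding protein needed for nerve and muscle upkeep in mice, fell to 14.7, 13.6 and 13.4 FPKM in heated CHIP-KO, against 18.4, 19.4 and 20.1 unheated, and to 17.1, 12.1 and 11.9 FPKM in heated wild type, against 23.2, 21.7 and 20.4 unheated. The CHIP-KO fall (limma adjusted p = 0.0183) was lost without heated replicate 2 or 3 or unheated replicate 2 or 3 (limma adjusted p of 0.0575 to 0.0685), and the wild-type fall (limma adjusted p = 4.91e-04) was kept in all 12 such fits. Zfp207, a spindle checkpoint partner of Bub3, had log2 heat changes of 0.07 in CHIP-KO and -0.07 in wild type, neither past the threshold.

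Transcription and chromatin factors without a KRAB box numbered 19, and all 19 listed were members. With heat 2 rose and 2 fell in CHIP-KO, and 8 rose and 4 fell in wild type, and in CHIP-KO against wild type 7 were higher and 0 lower without heat, with 2 higher and 2 lower after it. This is 21.1%, 63.2%, 36.8% and 21.1% called, beside 20.0%, 58.7%, 48.5% and 42.4% of all rows. Without heat 42.6% of all members were higher and 4.41% lower. At an unadjusted p under 0.05 the same limma fit had 7 higher and 0 lower without heat. Of the 8 wild-type rises 6, and of the 7 unheated genotype differences 4, were kept in each of the 12 fits that left out 1 library. Among the heat calls those of Zfp384 in CHIP-KO and of Zfp91, Zfp462, Zfp516 and Zfp609 in wild type were lost in 2 to 5 of these fits (limma adjusted p of 0.0518 to 0.112). Among the unheated genotype calls those of Zfp384, Zfp592 and Zfp609 were lost in 3 to 8 fits (0.0512 to 0.169), and neither of the 2 higher after heat, Zfp462 and Zfp687, was kept in every fit (0.0548 to 0.144). Zfp687 fell in both genotypes, to 9.49, 10.7 and 11 FPKM in heated CHIP-KO, against 15.2, 15.7 and 14.8 unheated, and to 8.76, 8.78 and 9.13 FPKM in heated wild type, against 11.1, 12.7 and 13.5 unheated. Zfp217, a co-repressor partner known as an oncogene in human breast tumours, fell by 0.47 in CHIP-KO and by 0.33 in wild type on the log2 scale. Zfp281, a factor known from mouse pluripotent cells, rose in wild type (log2 change 0.44, limma adjusted p = 0.00359) and had a change of 0.10 in CHIP-KO (limma adjusted p = 0.569). Zfp608 stood at 5.12, 4.85 and 4.23 FPKM in heated CHIP-KO, against 4.74, 5.50 and 5.64 unheated, and at 5.15, 3.93 and 4.04 FPKM in heated wild type, against 2.35, 2.98 and 3.08 unheated. Its heat change in wild type was 0.50 on the log2 scale (limma adjusted p = 0.0023), and its interaction was -0.63 (limma adjusted p = 0.00843).

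Of 8 listed mesenchymal and developmental factors 5 were members. With heat 1 fell in CHIP-KO and 4 rose in wild type, and in heated CHIP-KO against heated wild type 1 was higher and 4 lower. Of all rows 20.0%, 58.7% and 42.4% were called in these comparisons, and a list of 5 chosen genes gives no share to set beside them. Their interaction was negative in 4, Zfp395, Zfp467, Zfp503 and Zfp703, beside 17.3% of all rows. Zfp467 is among the 4 rises, the 4 lower after heat and these 4, and it became a member through heated wild type alone. The 1 higher after heat was Zfp503, a member through CHIP-KO libraries only. The CHIP-KO fall was that of Zfp365, at 6.65, 5.39 and 5.17 FPKM in heated CHIP-KO, against 7.73, 6.88 and 7.11 unheated, and it was lost without heated replicate 2 or 3 or unheated replicate 1 or 3 (limma adjusted p of 0.0637 to 0.0971).

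Of the listed KRAB repressors with known retroelement or imprinted targets, 8 of 10 were members. With heat 1 fell in CHIP-KO and 2 in wild type, and by limma 0 rose in either genotype (0 in CHIP-KO and 1 in wild type at an unadjusted p under 0.05). This is 12.5% and 25% called, beside 20.0% and 58.7% of all rows, and 8 genes are too few to set such shares apart. The CHIP-KO fall, of Zfp369, was lost without heated replicate 1 or unheated replicate 1 or 2 (limma adjusted p of 0.0548 to 0.0698). Zfp809, which silences murine leukaemia virus sequences, stood at 3.39, 3.39 and 3.38 FPKM in heated CHIP-KO, against 3.80, 4.17 and 3.93 unheated, and fell in wild type, to 2.42, 2.75 and 2.86 FPKM heated, against 3.43, 3.69 and 3.98 unheated (log2 change -0.35, limma adjusted p = 8.09e-04). Zfp57 and Zfp445, which keep imprints, stood at 5.03 to 7.05 and 9.53 to 10.8 FPKM in heated CHIP-KO and at 5.99 to 7.17 and 10.6 to 11.5 FPKM in unheated CHIP-KO. In wild type Zfp57 stood at 6.68 to 8.06 FPKM heated and 5.93 to 6.78 FPKM unheated, and it passed no comparison. Zfp445 stood at 9.77 to 11.2 FPKM in heated and 8.42 to 9.81 FPKM in unheated wild type. It was higher in unheated CHIP-KO (log2 difference 0.24, limma adjusted p = 0.0163), a call lost without unheated CHIP-KO replicate 1 or 2 or unheated wild-type replicate 1 (limma adjusted p of 0.0534 to 0.0588), and its interaction was -0.29 (limma adjusted p = 0.0464). Zfp568, which represses a placental Igf2 transcript, passed none either.

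The co-repressor genes that KRAB proteins depend on were followed as a list of 28 names, 27 of them tested. With heat 1 rose and 4 fell in CHIP-KO and 4 rose and 11 fell in wild type, and in CHIP-KO against wild type 8 were higher and 4 lower without heat. This is 18.5%, 55.6% and 44.4% called, beside 20.0%, 58.7% and 48.5% of all rows. Trim28, the direct partner of the KRAB box, was lower in unheated CHIP-KO (log2 difference -0.30, limma adjusted p = 0.0221) and passed no other comparison. Its unheated wild-type libraries were spread, with a mean of 114 and an SD of 18.9 FPKM. Daxx was higher in CHIP-KO, by 1.02 without heat and 0.74 after it on the log2 scale. Cbx5, a heterochromatin protein, fell with heat by 0.50 in CHIP-KO and by 0.78 in wild type. Resf1, which works with Setdb1 in silencing, rose with heat (0.44 in CHIP-KO and 1.14 in wild type).

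Values of related genes with other names were set beside the members. Another 47 KRAB zinc finger genes with other names had 0 higher and 8 lower by limma with heat in CHIP-KO (1 and 15 at an unadjusted p under 0.05), 12 higher and 6 lower with heat in wild type, 11 higher and 4 lower in unheated CHIP-KO, and an interaction negative in 7 and positive in 0 by limma (12 and 0 unadjusted; median -0.25). The 31 tested Zbtb genes had 5 higher and 4 lower in unheated CHIP-KO (median 0.05) and 2 higher and 10 lower with heat in CHIP-KO. The 61 Zfp-numbered rows tested that stayed below the rule had 15 higher and 4 lower in unheated CHIP-KO (median 0.14) and 1 higher and 15 lower with heat in CHIP-KO (median -0.15). Of all rows 23.9% were higher and 24.5% lower in unheated CHIP-KO, and 8.65% higher and 11.4% lower with heat in CHIP-KO.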

How the data were processed

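Poly(A)-captured RNA of 12 MEF libraries was sequenced, per the labels' protocols. The authors deposited 1 table of FPKM values with gene lengths, per the file headers. HISAT2 is named in the submitters' processing notes. The sources used here do not give its version, the counting tool or the annotation. FPKM times gene length, divided by the value of 1 fragment in each library, came out whole for 100% of values (tolerance 0.01), which gave the fragment counts and depths. All 204 member identifiers were in GENCODE M21 (GRCm38), 197 of them at the same position.

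The deposited FPKM were taken as log2(FPKM + 1), a scale that understates changes of low genes. The 13023 rows at FPKM 1 or more in 3 or more libraries entered a single limma 3.58.1 model (R 4.3.3) of 4 group means with a variance trend. All p-values are two-sided and Benjamini-Hochberg adjusted over these rows, with 0.05 as the threshold. KRAB boxes were found in translated GENCODE coding sequences with pyhmmer 0.12.3, by a profile of 215 windows (E-value 1e-05). Fingers were counted by the usual cysteine and histidine spacing. The fit was tested on simulated data. Of simulated 1.5-fold changes it recovered 46.0% to 54.7% in the comparisons of 2 groups and 6.45% for the interaction. Of 4-fold changes it recovered 96.9% to 100%. The share of false ones among its calls was 1.91% to 6.03%.

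The members, the lists and the rule for named genes were chosen with earlier results of these data known. For each comparison the rule takes the 6 largest rises and 6 largest falls past the threshold whose groups do not overlap (overlap not used for the interaction). It adds the role lists, members that passed through 1 group and those beside the FPKM threshold. Other members and the clusters were named after their values were seen. Alternatives were another pseudocount, other filters and member rules, 3 scalings, library weights, protein-coding rows alone, each pair of groups alone, a replicate block, voom on fragments, and libraries left out. Leaving out members that reached 2 FPKM in 1 genotype or at 1 treatment only was chosen after seeing the data. Same-numbered libraries had correlations of -0.12 to 0.335 in their deviations from group means, not all over 0.1, so the numbers were not taken to pair libraries. Between the heated libraries of the genotypes they were 0.335, 0.0207 and 0.231 for numbers 1, 2 and 3. Heated libraries of unlike number had -0.315 to 0.130. Figures used matplotlib 3.10.9 (Python 3.11.15).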

Additional observations from a re-analysis of the deposited data

Results flagged for a closer look

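For 25 of the 79 members named in the text or by the rule, beside 35.2% of all rows, the heat response differed between genotypes by limma's interaction test with Benjamini-Hochberg adjustment (log2 heat change in CHIP-KO minus that in wild type). Several of the 25 were named for a large interaction or for a pattern of calls that goes with a negative one, so their number is no result. The interaction was most negative for Zfp703 (-1.16), Zfp467 (-1.07) and Zfp185 (-1.02), whose heated wild-type libraries were their highest. It was -0.65 for Zfp408, -0.63 for Zfp608, -0.60 for Zfp62 and Zfp637 and -0.59 for Zfp503. Values of -0.57 for Zfp821, -0.56 for Zfp395, Zfp651 and Zfp266, -0.55 for Zfp647 and -0.54 for Zfp827 and Zfp358 followed. Zfp873 (-0.52), Zfp760 (-0.50), Zfp87 (-0.48), Zfp516 (-0.44), Zfp157 (-0.43), Zfp444 (-0.41) and Zfp513 (-0.35) were next. Zfp445 (-0.29) and Zfp219 (-0.22) had the smallest negative values, and Zfp706 was the 1 positive (0.46). Zfp467 and Zfp873 were members through 1 group each. Zfp503 and Zfp760 were members through CHIP-KO libraries only, and Zfp87 through unheated libraries only.

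The call of Zfp219 was lost in 9 of the 12 fits that left out 1 library (limma adjusted p of 0.0696 to 0.120). It was kept without heated CHIP-KO replicate 1, heated wild-type replicate 2 or unheated wild-type replicate 2. That of Zfp445 was lost in 9 as well (0.0509 to 0.108), and kept without heated CHIP-KO replicate 2, heated wild-type replicate 2 or unheated wild-type replicate 3. That of Zfp647 was lost without heated CHIP-KO replicate 2, unheated CHIP-KO replicate 2 or 3 or unheated wild-type replicate 1 (0.0518 to 0.0628). The limma adjusted p of Zfp62 was 0.0553 without both wild-type replicates 1. Groups of 3 libraries were not screened for single libraries far from the others.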

How the results depend on the processing

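Of 183 calls on named members, 121 kept their side of the threshold under every alternative that gave a value, and 0 of the 183 limma calls turned their direction. With library weights 113 members (55.4%) were called for heat in CHIP-KO, 113 (55.4%) for CHIP-KO against wild type heated and 106 (52.0%) for the interaction, beside 47.6%, 66.0% and 56.8% of all rows. With a mean FPKM of at least 5 for tested rows, 85 members were tested, and 25 (29.4%) were called for heat in CHIP-KO, 47 (55.3%) for heat in wild type, 45 (52.9%) for genotype unheated, 23 (27.1%) for genotype heated and 25 (29.4%) for the interaction, beside 19.9%, 64.2%, 55.8%, 47.5% and 43.2% of all rows. With the member rule at FPKM of at least 5, which left 95 members, the counts in the same order were 28, 55, 51, 28 and 29. The rows tested were unchanged there, with 20.0%, 58.7%, 48.5%, 42.4% and 35.2% called. Without a filter on low values 36 of 204 interactions (17.6%) were called, beside 14.6% of all rows. Leaving out 1 library at a time gave 40 to 75 members for heat in CHIP-KO, 97 to 109 for heat in wild type, 70 to 102 for genotype unheated, 47 to 67 for genotype heated and 40 to 62 for the interaction. Of all rows, 12.2% to 26.6%, 54.0% to 58.5%, 40.9% to 52.6%, 35.6% to 46.4% and 29.1% to 37.4% were called in that order.

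Calls kept in each of those 12 fits were 8 of 13 rises and 25 of 49 falls for heat in CHIP-KO, 55 of 69 and 29 of 40 for heat in wild type, 47 of 87 and 7 of 9 for genotype unheated, 20 of 27 and 23 of 34 for genotype heated, and 36 of 56 negative interactions. The replicate number as a block, which the correlations do not show to pair libraries, gave 64, 112, 88, 61 and 53 members in that order of comparisons. Of all rows 20.0%, 58.6%, 48.4%, 42.4% and 35.2% were called with that block. Each pair of groups alone gives no interaction. Members had as few as 2 fragments in a library, so low members are measured least precisely.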
